A study of Mus musculus with 8 samples.

Results

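The 9 cadherins of the kidney examined here were *Cdh1*, *Cdh2*, *Cdh3*, *Cdh4*, *Cdh6*, *Cdh11*, *Cdh13*, *Cdh16* and *Cdh17*. They were picked by gene symbol, and all 9 were present among the 24063 symbols listed for each culture. RNA-Seq had been performed on 8 cultures of mouse tubuloids, which are tubule-like structures grown from primary kidney fragments in Matrigel, a basement membrane gel. The 4 GDNF cultures, numbered 6, 12, 17 and 22, had received a 24 h pulse of GDNF after plating, and the 4 control cultures, numbered 3, 7, 14 and 21, had received the same growth factor medium without it. All 8 cultures came from kidneys of mice at postnatal day 7 to 10 and were collected after 7 days in culture. Both groups carried the genotype Pkd2fl/fl Pax8rtTA TetOCre mTmG: floxed *Pkd2*, a doxycycline-dependent Cre driven from the renal epithelial *Pax8* promoter, and a membrane fluorescence reporter. The labels list no doxycycline for these cultures. The labels do not say whether each culture came from its own animal or whether control and GDNF cultures shared preparations. The p-values measure the spread between these cultures only.

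Cadherins are calcium-dependent adhesion receptors. Classical cadherins bind the same kind of cadherin on a neighbouring cell through their outer domains, and their cytoplasmic tail binds beta-catenin or plakoglobin and p120 catenin, which tie the junction to actin through alpha-catenin. *Cdh1* (E-cadherin) holds most tubule epithelia together, *Cdh2* (N-cadherin) is prominent in the proximal tubule and in mesenchyme, and *Cdh3* (P-cadherin) and *Cdh4* (R-cadherin) are further type I cadherins. *Cdh6* (K-cadherin), a type II cadherin, marks nephron epithelium as it forms, and *Cdh11* (OB-cadherin), the other type II member, is typical of mesenchymal cells. GDNF is a ligand of the receptor Ret and drives the outgrowth and branching of the ureteric bud, from which the collecting ducts form.

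The group name classical cadherins did not hold for all 9 genes. *Cdh13* (T-cadherin) is anchored to the membrane by a lipid, and *Cdh16* (kidney-specific cadherin) and *Cdh17* (liver-intestine cadherin) belong to the 7D cadherins, which have a short tail. The last 60 coding bases before the stop codon are printed for 8 of the 9 genes from the transcripts of GENCODE release M21 on GRCm38. Capitals mark a 17-letter pattern, CTGGCNGANNTGTANGG with N for any base, which is the consensus of the members that share it. It was defined after these sequences had been looked at and was searched on the coding strand, in the reading frame.
Cdh1: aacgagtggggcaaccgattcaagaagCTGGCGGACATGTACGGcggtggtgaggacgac
Cdh3: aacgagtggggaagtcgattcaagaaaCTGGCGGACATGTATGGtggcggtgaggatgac
Cdh4: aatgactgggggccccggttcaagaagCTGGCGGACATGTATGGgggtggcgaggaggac
Cdh6: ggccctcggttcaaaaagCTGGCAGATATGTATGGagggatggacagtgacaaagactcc
Cdh11: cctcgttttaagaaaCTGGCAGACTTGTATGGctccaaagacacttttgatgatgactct
Cdh13: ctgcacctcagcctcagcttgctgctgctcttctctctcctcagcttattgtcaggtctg
Cdh16: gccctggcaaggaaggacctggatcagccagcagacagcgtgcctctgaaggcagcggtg
Cdh17: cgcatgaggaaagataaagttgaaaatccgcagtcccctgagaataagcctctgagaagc
By its definition the pattern was present in 6 of the 9 members, the type I and type II cadherins *Cdh1*, *Cdh2*, *Cdh3*, *Cdh4*, *Cdh6* and *Cdh11*. It was not found in this window of *Cdh13*, *Cdh16* or *Cdh17*. Among the 21600 genes searched, with the defining members not left out, it was present in 9, or 0.0417%, and all 9 were numbered cadherins. At 9 genes, it cannot be present in all of the 13 further type I and type II cadherins described below. Its absence therefore does not mark a tail as other than classical.

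Of the 9 genes, 5 lie on chromosome 8. In GRCm38 coordinates of the RefSeq annotation *Cdh11* spans chr8:102632095-102785493 on the minus strand, *Cdh16* chr8:104601915-104624396 on the minus strand, *Cdh3* chr8:106510852-106556911 on the plus strand, *Cdh1* chr8:106603350-106670247 on the plus strand and *Cdh13* chr8:118140017-119324929 on the plus strand. *Cdh3* and *Cdh1* are direct tandem neighbours, 46438 bp apart. *Cdh17* lies at chr4:11758157-11817905 on the plus strand, *Cdh4* at chr2:179442423-179899377 on the plus strand, *Cdh6* at chr15:13028699-13176407 on the minus strand and *Cdh2* at chr18:16588877-16809246 on the minus strand.

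The cultures differed in depth, scaling and marker RNA, partly along the groups and partly within them. Total counts ranged from 72991721 to 97490625 per culture. The scaling factors of the trimmed mean of M-values method (TMM) were 0.790 to 0.982 in the controls and 1.07 to 1.11 in the GDNF cultures, so they separated the groups. In each group 2 cultures held mainly *Xist* RNA (control 3 and 7, GDNF 6 and 12) and 2 mainly RNA of 4 Y-linked genes (control 14 and 21, GDNF 17 and 22). Control 3 held both, at 12.5 TPM of *Xist* and 1.5 TPM of Y-linked RNA, and so did GDNF 6, at 57.4 and 6.46 TPM. The summed level of 10 epithelial markers, in TPM, the authors' length-normalized abundance, was 640.3 to 4981 in controls and 1459 to 2020 in GDNF cultures, with control 14 lowest and control 21 highest. In control 21 this sum was mostly keratins, with *Krt18* at 1502, *Krt8* at 1259 and *Krt7* at 1079 TPM. Of the 10 markers 5 were highest in control 21, 3 in GDNF 6 and 2 in GDNF 12. The summed level of 12 stromal markers was 211 to 1758 TPM in controls and 265 to 1397 TPM in GDNF cultures, lowest in control 3 and GDNF 6 and highest in control 14. The 10 collecting duct markers summed to 14.3 to 49 TPM in controls and 23.3 to 119 TPM in GDNF cultures, with *Fxyd4* at 4.95 to 69.3 TPM and *Gata3* at 6.48 to 27.4 TPM but the water channel *Aqp2* at or below 0.356 TPM. Of the proximal tubule markers, the endocytic receptor *Lrp2* stayed at or below 0.0899 TPM. In such bulk RNA, fewer cells of a type and less RNA per cell cannot be told apart.

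On the TPM scale the 9 cadherins covered a wide range of levels. Mean levels in controls fell in the order *Cdh11* (91.3 TPM), *Cdh16* (38.7), *Cdh1* (28.9), *Cdh6* (24.7), *Cdh2* (7.31), *Cdh13* (5.66), *Cdh3* (5.37), *Cdh4* (2.06) and *Cdh17* (0.339). Only 2 of these steps held without overlap of the 4 cultures, that from *Cdh6* to *Cdh2* and that from *Cdh4* to *Cdh17*. In GDNF cultures the order was *Cdh11* (103 TPM), *Cdh16* (63.7), *Cdh6* (59.4), *Cdh1* (31.0), *Cdh3* (7.34), *Cdh13* (7.32), *Cdh2* (5.57), *Cdh4* (4.01) and *Cdh17* (0.336). There the steps from *Cdh6* to *Cdh1*, from *Cdh1* to *Cdh3* and from *Cdh4* to *Cdh17* did not overlap, and all other neighbours did. *Cdh6* stood above *Cdh1* in 4 of 4 GDNF cultures and below it in 2 of 4 controls. *Cdh11*, the mesenchymal cadherin, stood at percentile 95.1 of all listed genes in controls, and *Cdh17* at percentile 37.6.

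**Figure D1:**
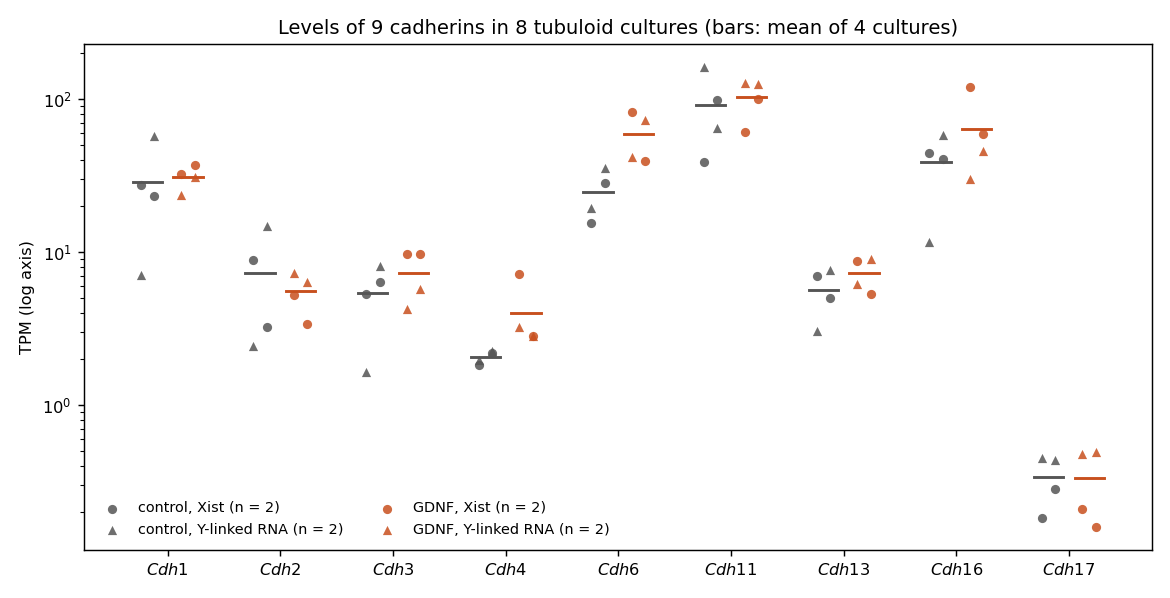
TPM (log axis) of each cadherin in the 8 cultures, grey for controls and orange for GDNF, with circles for cultures with mainly Xist, triangles for those with mainly Y-linked RNA, and bars for the mean of 4 cultures. Cdh11 lies highest and Cdh17 lowest, and the GDNF and control points of Cdh4 and Cdh6 do not overlap on this scale, as for 24.1% of genes averaging at least 1 TPM.

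The question of the comparison was whether a GDNF pulse altered the cadherin RNA of the tubuloids at collection. In the edgeR quasi-likelihood test on counts per gene, with TMM scaling and Benjamini-Hochberg adjustment over 16557 genes, all 9 cadherins passed the filter on low counts. None of the 9 passed an adjusted p of 0.05, and neither did any other gene (0% of those tested). At an unadjusted p of 0.05, 1 of the 9 was higher after GDNF, *Cdh6*, against 9.25% of all genes tested, and 0 of the 9 were lower, against 12.9%. Counting both directions, 22.1% of all genes lay under this threshold, 1531 higher and 2134 lower. With library size only as the scaling the balance turned to 3299 higher (19.9%) and 850 lower (5.13%). DESeq2, the tool named in the processing notes, called 1 of the 9 at its adjusted p of 0.05, again *Cdh6*, against 10.6% of 11413 genes called, 1.7% higher and 8.88% lower.

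*Cdh6*, the cadherin of forming nephron epithelium, had the smallest p of the 9, with a higher estimate after GDNF that DESeq2 called and edgeR did not. Its level was 15.5, 28.4, 19.3 and 35.5 TPM in control cultures 3, 7, 14 and 21. In GDNF cultures 6, 12, 17 and 22 it was 82.8, 39.5, 42.0 and 73.5 TPM. The groups did not overlap on this scale, and GDNF 6 and 22 lay well above the rest. Mean levels were 24.7 ± 9.01 TPM in controls and 59.4 ± 21.9 TPM after GDNF (SD, n = 4 each), a 2.41-fold ratio with an exact two-sided permutation p of 0.0286, the smallest that 70 assignments allow. With any 1 of the 4 controls left out the exact permutation p was 0.0857, and with any 1 GDNF culture left out it was 0.0286. The groups still did not overlap in any of these cases. With unequal groups, the test also counts assignments that put the highest values in the smaller group. The rise to 0.0857 therefore does not show that the difference rested on a single control. This read-out is not particular to *Cdh6*: TPM values were higher after GDNF without overlap for 23.4% of the 13698 genes that averaged at least 1 TPM, and the median gene had a log2 ratio of 0.40.

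Counts scaled to the library size with TMM factors (CPM) gave a smaller difference for *Cdh6*. The controls held 35.0, 46.6, 31.7 and 54.0 CPM and the GDNF cultures 117, 52.1, 55.3 and 91.4 CPM. GDNF 12 then lay below control 21, so the groups overlapped on this scale, as for all 9 cadherins, whereas 13.2% of genes tested did not overlap. The log2 fold change was 0.91 ± 0.28 (SE) in edgeR, with an unadjusted p of 0.00926 and an adjusted p of 0.167, and the adjusted p in DESeq2 was 0.0384. Over the edgeR alternatives the adjusted p of *Cdh6* ranged from 0.108 to 0.381, and the log2 fold change over all alternatives from 0.59 to 1.12. The unadjusted p stayed below 0.05 when any 1 culture was left out and was 0.0705 when control 3 and GDNF 6, the cultures with both *Xist* and Y-linked RNA, were left out together.

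The difference in *Cdh6* had the same direction in both kinds of culture. Among cultures with mainly *Xist* RNA its mean was 40.8 CPM in controls and 84.3 CPM after GDNF, and among those with mainly Y-linked RNA 42.9 and 73.4 CPM, with no overlap of the 2 against 2 cultures in either kind, a trait shared by 11.5% of all genes tested. With the kind of culture as a term the log2 fold change was 0.91 ± 0.29 (SE), and the difference between the kinds was -0.27 ± 0.61 (SE; edgeR interaction, adjusted p = 1). The sum of all 6 nephron progenitor markers was 10.1 to 15.7 TPM in controls and 19.9 to 29.2 TPM after GDNF. Among the GDNF cultures this sum did not follow the order of *Cdh6*. GDNF 22 had the lowest sum of that group, 19.9 TPM, at 73.5 TPM of *Cdh6*, and GDNF 17 had 27.8 TPM at 42.0 TPM. The sum was carried mainly by *Sall1* (edgeR log2 fold change 0.73 ± 0.20, SE, unadjusted p = 0.00481, adjusted p = 0.167), while *Six2* reached at most 3.72 TPM. In the edgeR fit 3 of these 6 markers had a higher and 3 a lower estimate. The sum of 8 proximal tubule markers, which was mostly *Slc5a2*, was 4.14 to 8.88 TPM in controls and 10.5 to 12.9 TPM after GDNF, with *Slc34a1* and *Lrp2* near 0. Neither sum overlapped between the groups, on a scale where 23.4% of genes averaging at least 1 TPM were higher without overlap. The part of either marker list in the *Cdh6* result was not tested.

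**Figure D2:**
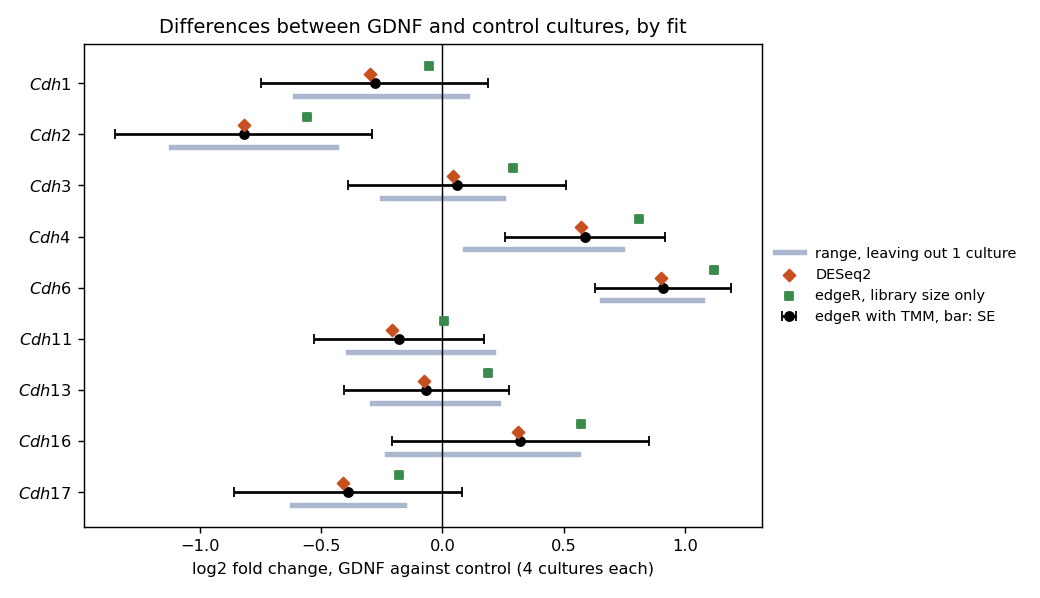
log2 fold change of each cadherin, GDNF against control (4 cultures each): black circles with SE bars for edgeR with TMM, orange diamonds for DESeq2, green squares for edgeR with library size only, and blue bars for the range when 1 culture is left out. The range of Cdh6 runs from 0.66 to 1.07 and stays above 0, and those of Cdh1, Cdh3, Cdh11, Cdh13 and Cdh16 cross 0.

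*Cdh1*, E-cadherin, did not differ between the groups beyond its spread. Its level was 27.6, 23.2, 7.12 and 57.5 TPM in control cultures 3, 7, 14 and 21, and 32.4, 37.0, 23.7 and 30.8 TPM in GDNF cultures 6, 12, 17 and 22. The GDNF cultures lay inside the range of the controls, whose lowest and highest members were control 14 and control 21. The means were 28.9 ± 21 and 31.0 ± 5.49 TPM (SD, n = 4 each), and the exact permutation p was 0.83. In edgeR the log2 fold change was -0.28 ± 0.47 (SE, unadjusted p = 0.559). Its sign rested on single cultures: it was 0.10 without control 21 and -0.61 without control 14, with an unadjusted p of 0.0466 and an adjusted p of 0.226 in that last fit.

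*Cdh2*, N-cadherin, followed the order of *Cdh1* over the 4 controls. It was listed at 8.83, 3.22, 2.43 and 14.8 TPM in controls and at 5.21, 3.38, 7.33 and 6.35 TPM after GDNF. Control 21 was again highest and control 14 lowest. The log2 fold change was -0.82 ± 0.53 (SE, unadjusted p = 0.153), the most negative of the 9, and ranged from -1.12 without control 14 (unadjusted p = 0.028) to -0.44 without control 21. Without control 14, 2 of the 9 cadherins, *Cdh1* and *Cdh2*, were lower at an unadjusted p of 0.05, against 13% of all genes tested in that fit.

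*Cdh3*, P-cadherin, which sits next to *Cdh1* on chromosome 8, held 5.29, 6.42, 1.64 and 8.12 TPM in controls and 9.69, 9.71, 4.24 and 5.71 TPM after GDNF. Control 14 was lowest here too, and the groups overlapped. Its log2 fold change of 0.06 ± 0.45 (SE, unadjusted p = 0.896) was close to 0 and took either sign in other fits. Its 2 listed transcripts had the same counts, so sums per gene count its reads more than once.

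*Cdh4*, R-cadherin, was low throughout, at 1.82, 2.19, 1.97 and 2.25 TPM in controls. After GDNF it was 7.16, 2.83, 3.22 and 2.83 TPM. On the TPM scale the groups did not overlap (exact permutation p = 0.0286), which put it in the 23.4% of genes named above. With any 1 control left out the exact permutation p was 0.0857, although the groups still did not overlap. GDNF 6 stood far above the other 3 GDNF cultures. With TMM scaling the groups overlapped, and the log2 fold change was 0.59 ± 0.33 (SE, unadjusted p = 0.109). It was 0.092 without GDNF 6 (unadjusted p = 0.634). With scaling by library size only, *Cdh4* and *Cdh6* were the 2 of 9 that were higher at an unadjusted p of 0.05, against 19.9% of all genes; that scaling moved the median of all genes by 0.22 on the log2 scale.

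*Cdh11*, the mesenchymal type II cadherin, had the highest mean of the 9 in both groups. It was listed at 38.9, 99.1, 162 and 65.0 TPM in controls and at 60.8, 99.5, 127 and 126 TPM after GDNF. Control 14, the lowest culture for *Cdh1*, was the highest for *Cdh11*, and control 3 was the lowest. In edgeR *Cdh11* had a log2 fold change of -0.18 ± 0.35 (SE, unadjusted p = 0.609), 0.0081 with library size only and 0.21 without control 14. Of the 12 stromal markers 8 were highest in control 14, among them *Dcn* at 178 TPM, 3 in GDNF 17 and 1, *Col1a1*, in GDNF 12 at 178 TPM. The part of stromal RNA in the *Cdh11* level was not tested.

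*Cdh13*, the lipid-anchored cadherin, varied least among the cadherins above 5 TPM. It was 6.97, 5.0, 3.06 and 7.60 TPM in controls and 8.72, 5.30, 6.20 and 9.06 TPM after GDNF, a 2.96-fold range over the 8 cultures. The groups overlapped, and the log2 fold change was -0.066 ± 0.34 (SE, unadjusted p = 0.85), with the opposite sign, 0.19, under library size scaling.

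*Cdh16*, the kidney-specific 7D cadherin of tubule epithelium, held 44.3, 40.7, 11.7 and 57.9 TPM in controls and 120.0, 59.0, 30 and 46.0 TPM after GDNF. GDNF 6 was highest by a wide margin and control 14 lowest. *Cdh16* had a log2 fold change of 0.32 ± 0.53 (SE, unadjusted p = 0.551), and it was -0.23 without GDNF 6. All 3 transcripts listed for the gene share nearly all reads, and taking 1 transcript per gene did not change the sign.

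*Cdh17*, the liver-intestine cadherin and the other 7D member, was near the lower end of detection, with 28 to 91 counts per culture. Its TPM was 0.182, 0.285, 0.451 and 0.440 in controls and 0.210, 0.161, 0.480 and 0.492 after GDNF. On this scale the cultures sorted by kind: the 4 cultures with mainly *Xist* RNA were all below the 4 with mainly Y-linked RNA. This pattern was noticed after the values were seen. It held with TMM scaling as well, where 2.32% of all genes tested were lower without overlap in the *Xist* cultures. With TMM scaling the GDNF cultures were below the controls within each kind, as for 10.7% of all genes tested. This depended on the scale. In TPM the groups overlapped among the *Xist* cultures, and among the Y-linked cultures GDNF lay above the controls without overlap. For GDNF against control the log2 fold change was -0.39 ± 0.47 (SE, unadjusted p = 0.433), and DESeq2 gave no adjusted p for this gene.

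The make-up of the cadherin RNA within a culture does not depend on library scaling. Summed over the 9 genes, cadherin RNA was 149, 209, 209.8 and 249 TPM in controls and 327, 256, 244 and 301 TPM after GDNF. The share of *Cdh6* in this sum was 9.22% to 14.2% in controls and 15.4% to 25.3% after GDNF, without overlap. No other cadherin had a share without overlap. When every gene was divided by the same sum, 2.11% of genes averaging at least 1 TPM were higher after GDNF without overlap, beside 23.4% in undivided TPM. The sum holds *Cdh6* and had itself a higher mean after GDNF (282 TPM, 204 TPM in controls). For genes outside the sum the 2.11% is therefore not a like background for a share. *Cdh11* took 26.1% to 77.2% of the sum in controls and 18.6% to 52% after GDNF. *Cdh16* took 5.6% to 29.6% and 12.3% to 36.7%, and *Cdh1* 3.39% to 23.1% and 9.72% to 14.4%. Shares of *Cdh1* thus spread more among the controls than among the GDNF cultures, a difference in spread that was not tested.

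**Figure D3:**
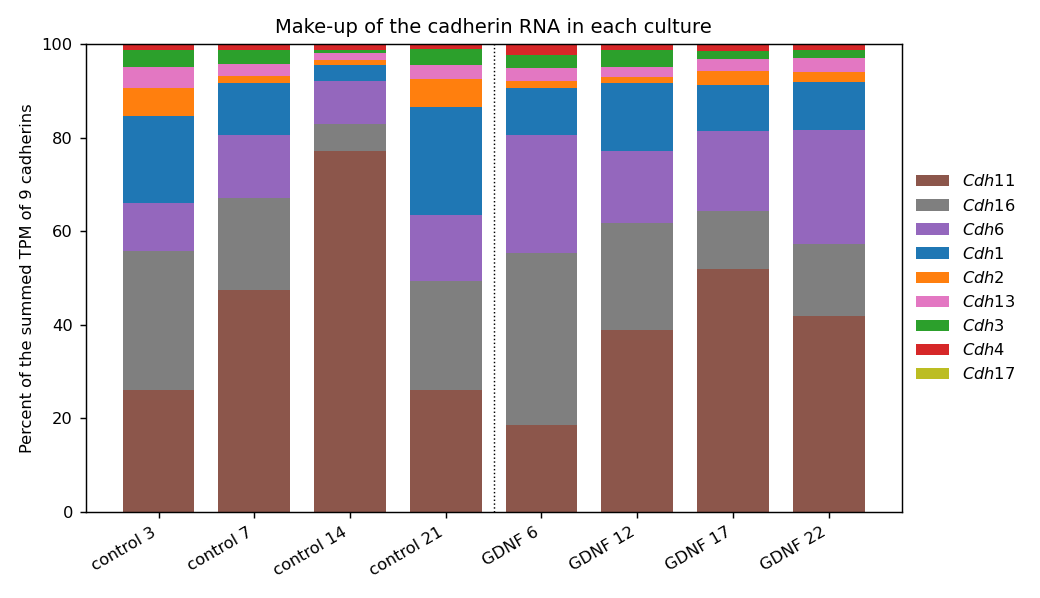
Stacked bars give the percent of the summed TPM of the 9 cadherins that each contributes, in the 4 control cultures (left of the dotted line) and the 4 GDNF cultures (right). Cdh11 takes 77.2% in control 14, and the Cdh6 band is 9.22% to 14.2% in controls and 15.4% to 25.3% after GDNF.

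Ratios of TPM between cadherins of the same culture were compared for 5 pairs, each by an exact two-sided permutation test with adjustment over the 5. None passed. *Cdh6* over *Cdh2* had the largest difference, with a mean log2 ratio of 2.05 ± 1.19 in controls and 3.40 ± 0.62 after GDNF (SD, n = 4 each; exact p = 0.143, adjusted p = 0.714). In linear terms *Cdh6* was 1.75, 8.84, 7.97 and 2.40 times *Cdh2* in controls 3, 7, 14 and 21 and 15.9, 11.7, 5.73 and 11.6 times in the GDNF cultures. The low control ratios were those of controls 3 and 21, the cultures with the most *Cdh2*, and control 3 also had the least *Cdh6* (15.5 TPM).

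The switch pair *Cdh1* over *Cdh2*, often followed when epithelial cells take on mesenchymal traits, had a mean log2 ratio of 2.00 ± 0.59 in controls and 2.52 ± 0.73 after GDNF (exact p = 0.314, adjusted p = 0.714). *Cdh1* exceeded *Cdh2* in all 8 cultures, by 2.94-fold to 10.9-fold. *Cdh1* over *Cdh11* spread furthest within a group: it was 0.0439 in control 14 and 0.886 in control 21, against 0.187 to 0.532 in GDNF cultures. Its mean log2 ratio was -1.82 ± 1.98 in controls and -1.70 ± 0.67 after GDNF (exact p = 0.943). The differences for *Cdh1* over *Cdh16* and *Cdh16* over *Cdh6* were -0.31 (exact p = 0.571) and -0.52 (exact p = 0.486) on the log2 scale.

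**Figure D4:**
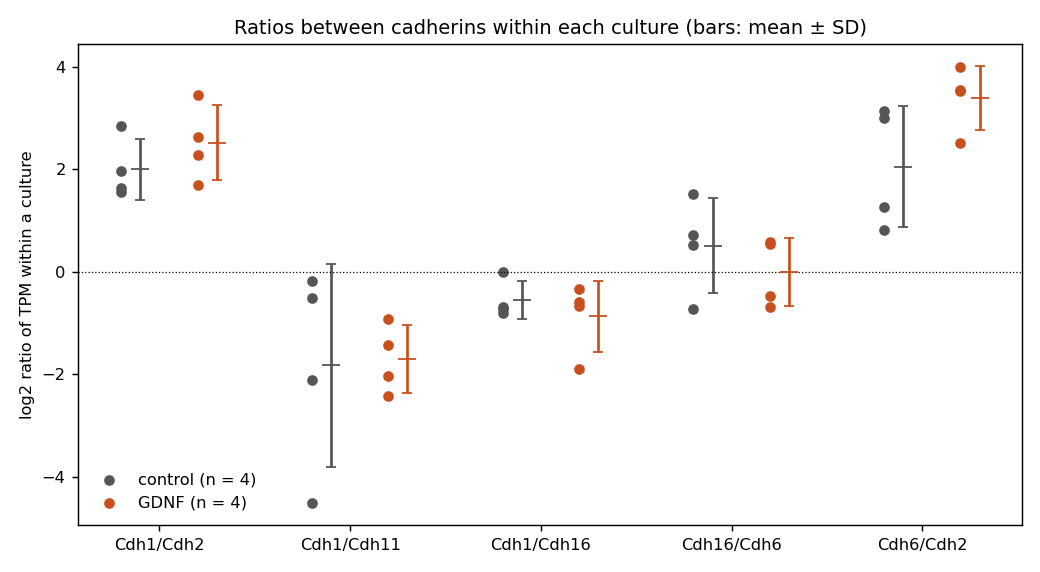
log2 ratio of TPM between 2 cadherins of the same culture for 5 pairs, with a point for each culture (grey controls, orange GDNF) and the mean ± SD of 4 cultures beside the points. All 5 pairs overlap between the groups, and Cdh1/Cdh11 in controls runs from -4.51 to -0.18.

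The cadherins were also compared with each other over the 8 cultures. Pearson's r of log2 CPM was computed for the 36 pairs of members and for each member with the mean of the epithelial and of the stromal markers, 54 relations in all, chosen after the values were seen. *Cdh11* and *Cdh16* had r = -0.94 (exact permutation p = 4.96e-05, adjusted p = 0.00268) and Spearman's rho = -0.98 (exact permutation p = 0.000397, adjusted p = 0.0214). With the 2 cultures farthest from the median of *Cdh11* left out r was -0.86, and with the group means removed it was -0.95. This was the only relation that passed the adjustment in both measures. By Pearson's r alone 15 of 54 passed.

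Among those 15, *Cdh3* and *Cdh16* had r = 0.94 (exact permutation p = 0.000149, adjusted p = 0.00402) and rho = 0.90 (exact permutation p = 0.00456, adjusted p = 0.0723), with r = 0.74 without the 2 farthest cultures. *Cdh1* and the epithelial markers had r = 0.95 (exact permutation p = 0.000496, adjusted p = 0.00893) and rho = 0.86 (exact permutation p = 0.0107, adjusted p = 0.0723), with r = 0.90 without the 2 farthest. *Cdh11* and the stromal markers had r = 0.89 (exact permutation p = 0.00236, adjusted p = 0.0171) and rho = 0.79 (exact permutation p = 0.0279, adjusted p = 0.108), with r = 0.71 without the 2 farthest. *Cdh1* and *Cdh11* had r = -0.87 (exact permutation p = 0.00422, adjusted p = 0.0228) and rho = -0.83 (exact permutation p = 0.0154, adjusted p = 0.083), with r = -0.81 without the 2 farthest. None of *Cdh2*, *Cdh4*, *Cdh6* and *Cdh17* entered a relation that passed. *Cdh6* had r = 0.17 with the epithelial markers (exact permutation p = 0.693) and -0.43 with the stromal markers (exact permutation p = 0.289). All values of a culture share its library and its scaling factor, and each kind of culture held too few samples for a value of its own.

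**Figure D5:**
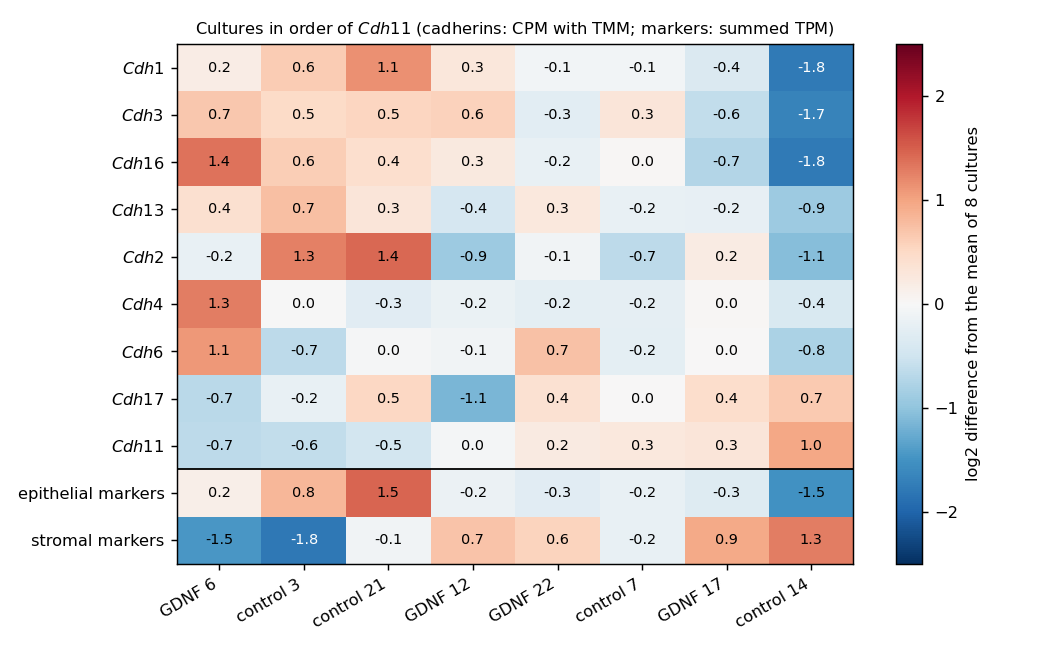
Each cell gives the log2 difference of a cadherin (CPM with TMM) or a marker sum (TPM) from its mean over 8 cultures, with cultures ordered by Cdh11 from left to right. Cdh1, Cdh3 and Cdh16 fall towards control 14, where Cdh11 and the stromal markers are highest, and Cdh4 and Cdh6 are highest in GDNF 6.

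The genes with the pattern most like each cadherin were sought among 11461 genes averaging at least 5 CPM, by Pearson's r of log2 CPM over the 8 cultures, as a description. For *Cdh1* they were *Sh3bp4*, *Llgl2* and *Rab11fip1* (r = 0.98 to 0.99), where *Llgl2* encodes a basolateral polarity protein and *Rab11fip1* a Rab11 effector of recycling endosomes. For *Cdh2* they were *Fbxo34*, *Rnd1* and *Tgm1*, and for *Cdh3* *Gpr56*, *Nedd4l* and *Cnksr1*, all between 0.98 and 0.99. *Nedd4l* encodes a ubiquitin ligase that acts on the epithelial sodium channel. *Cdh16* ran with *Acad11*, *Slc25a10* and *Prkcz*, the last an atypical protein kinase C of cell polarity (r = 0.98 to 0.99).

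For *Cdh6* the closest genes were *Lrp4*, *Sash1* and *Dennd6a* (r = 0.97 to 0.98), *Lrp4* being a member of the LDL receptor family. *Cdh4* ran with *Emid1*, *2310033P09Rik* and *Phf7* (r = 0.96 to 0.98), and *Cdh11* with *Zhx1* and *Zfp503* (r = 0.97). *Cdh13* was closest to *Fam129a*, *Nrarp* and *Gcnt1* (r = 0.95 to 0.96), of which *Nrarp* is a target and inhibitor of Notch signalling. *Cdh17*, at few counts, had weaker partners, *Orc3*, *Sept6* and *Alx1* (r = 0.93 to 0.94). With 8 cultures and this many genes searched, high values of r arise for any gene.

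Other members of the junction were described by lists. Of 13 further type I and type II cadherins, 4 passed the filter. *Cdh24* was the most abundant, at 1.62 to 10.3 TPM, with a log2 fold change of 0.74 ± 0.32 (SE, unadjusted p = 0.044, adjusted p = 0.216). *Cdh22* (1.25 ± 0.37, SE, unadjusted p = 0.00709) and *Cdh15* (-1.43 ± 0.53, SE, unadjusted p = 0.0217) were also under an unadjusted p of 0.05, and both were named after their values were seen because they averaged under 5 CPM. Both were low: *Cdh22* reached at most 1.1 TPM and *Cdh15* at most 0.517 TPM. Of the 4 genes, 2 were thus higher and 1 lower at this threshold, against 9.25% and 12.9% of all genes tested. No test of the list was run. The median of the 4 was 0.22. The endothelial cadherin *Cdh5* reached at most 0.499 TPM, and *Cdh7*, *Cdh8* and *Cdh12* had no counts in any culture.

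The main tail partners were abundant, with fold changes near 0. *Ctnnb1*, beta-catenin, was listed at 154 to 243 TPM over the 8 cultures and *Ctnna1*, alpha-catenin, at 49.3 to 128 TPM, with log2 fold changes of -0.018 ± 0.15 and -0.0029 ± 0.24 (SE). Of 16 catenins and partners 15 were tested, 11 with a higher and 4 with a lower estimate, whereas all 15 were higher with library size only. Under an unadjusted p of 0.05 there was 1 member (2 with library size only), against 22.1% of all genes. It was *Ankrd17*, with a log2 fold change of 0.46 ± 0.15 (SE, unadjusted p = 0.0114, adjusted p = 0.167). *Ankrd17* is not a catenin, and its link to cadherin tails was not examined. The median log2 fold change of the list was 0.10, beside 0.033 for all genes tested, and with library size only it was 0.33 beside 0.25.

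Of 15 desmosomal cadherins and plakophilins 8 were tested. At an unadjusted p of 0.05, 1 of the 8 was higher and 1 lower, against 9.25% and 12.9% of all genes. *Pkp4*, an armadillo protein of junctions, had a log2 fold change of 0.46 ± 0.14 (SE, unadjusted p = 0.00991, adjusted p = 0.167) and did not overlap between the groups in CPM, as for 13.2% of genes tested. *Perp*, a desmosome-associated membrane protein, had one of -1.01 ± 0.45 (SE, unadjusted p = 0.0483, adjusted p = 0.223). The median of the list was 0.054. Of 6 nectins and afadin, the second adhesion system of adherens junctions, 1 had an unadjusted p under 0.05, against 22.1% of all genes. It was *Pvrl3* (nectin-3), at -0.32 ± 0.13 (SE, unadjusted p = 0.0366, adjusted p = 0.203). The median of that list was 0.038.

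Of 13 enzymes that shed or cleave cadherins, 7 had a higher and 6 a lower estimate, with a median of 0.11. With library size only 9 were higher and 4 lower, where 11278 of all 16557 genes were higher, and the median was 0.35 beside 0.25 for all genes. In that fit 3 of the 13 were higher and 0 lower at an unadjusted p of 0.05, against 19.9% and 5.13% of all genes. *Adam10*, which sheds the outer part of E-cadherin, had a log2 fold change of 0.14 ± 0.15 (SE, unadjusted p = 0.368), and *Psenen*, a gamma-secretase subunit, was with TMM the 1 member under an unadjusted p of 0.05, against 22.1% of all genes, at -0.48 ± 0.20 (SE, adjusted p = 0.21).

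Of 9 repressors of *Cdh1* (the Snail, Zeb, Twist and E-protein families), 0 had an unadjusted p under 0.05 in edgeR, against 22.1% of all genes. DESeq2 called 0 of them, against 10.6% of its genes. In edgeR 4 had a higher and 5 a lower estimate, and the median was -0.081. With library size only 2 of the 9 were higher at an unadjusted p of 0.05, against 19.9% of all genes. *Snai2* was listed at 25.8 to 52.2 TPM, *Zeb1* at 2.19 to 13.8 TPM and *Zeb2* at 2.39 to 15.7 TPM. *Tcf4*, with the smallest unadjusted p of the list (0.143), had a log2 fold change of 0.28 ± 0.18 (SE).

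Marker lists of other cells completed the description. In the edgeR fit 2 of 10 epithelial markers were lower at an unadjusted p of 0.05, against 12.9% of all genes and 0 of the 10 with library size only. They were the keratins *Krt8* (-1.45 ± 0.63, SE) and *Krt7* (-1.22 ± 0.54, SE), both highest in control 21. Of the 10 epithelial markers, 4 had a higher and 6 a lower estimate. Of 12 stromal markers 1 was lower (12.9% of all genes), *Lum* (-1.30 ± 0.37, SE, unadjusted p = 0.00552), and of 8 endothelial markers 2 were higher (9.25% of all genes), *Flt1* (0.81 ± 0.26, SE, unadjusted p = 0.0109) and *Tek*, which reached at most 0.258 TPM, and 1 was lower, *Egfl7* (-0.96 ± 0.35, SE, unadjusted p = 0.0203). No marker of the proximal tubule, loop and distal tubule, collecting duct, podocyte or leukocyte lists passed an unadjusted p of 0.05 with TMM. With library size only, 2 of 5 tested proximal tubule markers and 1 of 5 tested leukocyte markers were higher at that threshold, against 19.9% of all genes. The summed podocyte markers were 23.2 to 135 TPM in controls and 35.4 to 153 TPM after GDNF. Leukocyte markers summed to at most 9.02 TPM in controls, and to 18.6, 6.87, 44.9 and 4.65 TPM in GDNF 6, 12, 17 and 22. In GDNF 17 the sum was mostly *Lyz2* at 35 TPM, while *Ptprc* was at 0.293 TPM there, in a range of 0.285 to 1.79 TPM over the cultures.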

How the data were processed

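RNA-Seq of 8 tubuloid cultures, 4 after a GDNF pulse and 4 controls, was analysed. Groups and culture numbers came from the titles and treatment labels. The groups share no culture number and the labels name no pairs, and tests were unpaired. Whether a control and a GDNF culture shared a preparation is not given. Control 3 and GDNF 6 both held *Xist* and Y-linked RNA, and control 7 and GDNF 12 both had 0 TPM of the Y-linked genes. A paired comparison was not run. Per the labels, poly-A selected SMART-Seq v4 libraries were processed with STAR, featureCounts and DESeq2 (versions are not given in the sources used here) on mm10 (GRCm38). The authors deposited raw whole-number counts for each RefSeq transcript, in which reads shared by transcripts appear more than once. The deposited TPM values sum to 1000000 per culture. The deposited FPKM values gave only transcript lengths.

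Counts were summed per symbol over 33068 transcripts and fitted in edgeR 4.0.16 (R 4.3.3; default filterByExpr, TMM, glmQLFit, glmQLFTest, Benjamini-Hochberg over all genes tested). DESeq2 1.42.0 was the alternative. The SE is the absolute log2 fold change over the square root of F. A gene's TPM was taken from its transcript of highest mean count. TPM and 5 ratios were compared by exact permutation. The kind of a culture is *Xist* or Y-linked, whichever of *Xist* and the sum of 4 Y-linked genes had more TPM.

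All 9 members are named. Of other lists, genes were named from the 6 with the smallest p at a mean of at least 5 CPM, besides defining members of a list. *Ctnnb1*, *Ctnna1*, *Adam10*, *Cdh5*, *Cdh7*, *Cdh8*, *Cdh12*, *Lrp2*, *Aqp2*, *Slc34a1* and *Six2* are such defining members, and *Cdh22*, *Cdh15* and *Tek* were named after their values were seen. The members and lists were chosen with earlier results of these data known. Proteins and promoters were not analysed here, and 1 gene with a pattern like that of *Cdh11* is not reported here. Exact tests ran in Python 3.11.15 (SciPy 1.17.1, NumPy 2.4.6), and matplotlib 3.10.9 drew the figures. Coding ends were read from GENCODE release M21.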

Additional observations from a re-analysis of the deposited data

Results flagged for a closer look

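Of 46 sets of 4 cultures examined (each cadherin in each group in TPM and in CPM, and each ratio in each group), 3 had a culture that lay far from the other 3 by Dixon's test, where chance gives about 1 in 20. GDNF 6 held 7.16 TPM of *Cdh4*, against 2.83 to 3.22 TPM in the other GDNF cultures, and 24.3 CPM against 8.48 to 10.2 CPM. Control 21 had a log2 ratio of *Cdh1* over *Cdh16* of -0.0086, against -0.81 to -0.68 in the other controls. No cadherin had opposite differences without overlap in the kinds of culture, and in the edgeR interaction 0 genes passed an adjusted p of 0.05, with 94 of 16557 under an unadjusted p of 0.05.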

How the results depend on the processing

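Which cadherins count as called depended on the tool. DESeq2 called 1 of 9 and 1208 genes at an adjusted p of 0.05, and 1 and 2364 at 0.1 (for DESeq2 a setting added after seeing the data), where edgeR called 0 and 0 at both. At an unadjusted p of 0.05, 2 cadherins passed with library size only and 0 with control 3 and GDNF 6 left out, and 1 to 3 (3 without control 14) with 1 culture left out, where genes ranged from 2192 to 4104, with 2359 without control 3, 2321 without GDNF 12 and 2192 without GDNF 22. The cause was not tested.

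Directions turned for the cadherins near 0. The log2 fold change of *Cdh3* was -0.0056 with the kind of culture as a term and -0.0079 without control 3 and GDNF 6, that of *Cdh13* 0.19 with library size only and 0.09 without those 2 cultures, and that of *Cdh11* 0.0081 with library size only. With 1 culture left out the ranges were -0.61 to 0.10 for *Cdh1*, -0.25 to 0.25 for *Cdh3*, -0.39 to 0.21 for *Cdh11*, -0.29 to 0.23 for *Cdh13* and -0.23 to 0.56 for *Cdh16*. *Cdh2*, *Cdh4*, *Cdh6* and *Cdh17* kept their direction in all of these fits.

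Of the differences in mean level, those of *Cdh1*, *Cdh11* and *Cdh13* were positive in TPM and -15, -29.5 and -0.399 in CPM with TMM. For *Cdh4* and *Cdh6* the exact test gave p of 0.2 and 0.0571 in CPM (differences of 4.34 and 37 CPM). Exact permutation within kinds (1.95 and 34.8 TPM) cannot go below p = 0.0556. With 1 culture left out the TPM differences ranged from -5.12 to 11.7 for *Cdh1*, -3.37 to 0.743 for *Cdh2*, 0.901 to 2.34 for *Cdh4*, 27 to 41.4 for *Cdh6* (exact permutation p = 0.0857 for both without any 1 control), -5.29 to 35.7 for *Cdh11* and -0.0563 to 0.0544 for *Cdh17*, and the log2 ratios from -0.78 to 0.67 for *Cdh1* over *Cdh11* and -0.49 to 0.027 for *Cdh1* over *Cdh16*. The other alternatives changed no sign and no side of a threshold for the ratios. In TPM the groups of *Cdh4* and *Cdh6* still did not overlap without any 1 control. At 28 to 91 counts per culture, *Cdh17* is the cadherin whose values depth limits most.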
